A study of Mus musculus with 40 samples.

Results

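Trem2, Tyrobp, Cst7, Clec7a, Itgax, Cd68, Cd52, Cd9, Lgals3bp and Axl are receptors and markers of the microglia that gather around amyloid plaques. These 10 of the 16593 gene symbols on the array were followed in the hippocampus of 40 mice. Of the 10 genes, 9 had a probe with that symbol in the annotation used, 12 probes in all, and Cd68 had none. On these arrays 7 of the genes could be tested, each through 1 probe. The 4 Clec7a probes and the Itgax probe were detected on no array at a detection p of at most 0.01, the limit used throughout.

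Each 1-colour Illumina Ref-8 array held hippocampal RNA of 1 sample, taken here as 1 mouse, and every mouse was 12 months old. The labels do not say that the inbred samples of a strain came from separate mice, so p-values measure the spread between these samples, which may be technical. The APP Tg mice carried a transgene for the amyloid precursor protein on 5 mixed backgrounds. The Tg DBA-rich mice (n = 7) were 75% DBA2, 9% SJL and 16% B6. The Tg DBA-mid mice (n = 3) were 50% DBA2, 42% SJL and 8% B6. The Tg SJL-richest mice (n = 6) were 84% SJL and 16% B6, the Tg SJL-rich mice (n = 6) 69% SJL and 31% B6, and the Tg B6-rich mice (n = 6) 62.5% B6 and 37.5% SJL. The inbred mice carried no transgene: 4 DBA2 (called DBA below), 4 SJL and 4 B6. Abeta40, a form of the amyloid peptide, was given as its log10 level in the guanidine fraction for the 28 Tg mice, from 3.86 to 5.49. The transgene line and its promoter are not given in the sources used here, and no Tg background had an inbred partner of the same mixture, so a Tg to inbred difference holds the transgene and the background share together and the 2 cannot be told apart.

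TREM2 is a lipid-sensing receptor on the microglial surface, and TYROBP, also called DAP12, is the adaptor that carries its signal through an activation motif to the kinase SYK. In mouse models of amyloid deposition, microglia at plaques lower their homeostatic genes and switch on a set that includes the members here, and the later steps of that switch need Trem2. Clec7a encodes the beta-glucan receptor dectin-1, Itgax the integrin CD11c, and Axl a receptor tyrosine kinase of the TAM family that helps clear dying cells. Cst7 encodes the protease inhibitor cystatin F, Cd52 a small glycosylphosphatidylinositol-anchored peptide of leukocytes, Cd9 a tetraspanin that oligodendrocytes also make, and Lgals3bp a secreted galectin-binding protein.

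Trem2 and Cst7 were the members called between Tg and inbred mice, Cst7 through a probe detected in Tg mice only, so the 250 bases upstream of their RefSeq starts are shown from the GRCm38.p6 promoter table, 5′ to 3′ on the gene's strand. The Trem2 window is chr17:48346151-48346400, plus strand, and the Cst7 window chr2:150570165-150570414, plus strand. Capitals mark exact copies of GAGGAAG, 1 form of the site bound by the myeloid factor PU.1, on either strand. Other forms of that site were not searched.
Trem2: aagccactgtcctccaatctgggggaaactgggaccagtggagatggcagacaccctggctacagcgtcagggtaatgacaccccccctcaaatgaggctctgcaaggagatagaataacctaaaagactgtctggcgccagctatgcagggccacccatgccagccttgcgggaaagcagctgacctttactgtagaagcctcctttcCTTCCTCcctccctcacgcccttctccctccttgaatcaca
Cst7: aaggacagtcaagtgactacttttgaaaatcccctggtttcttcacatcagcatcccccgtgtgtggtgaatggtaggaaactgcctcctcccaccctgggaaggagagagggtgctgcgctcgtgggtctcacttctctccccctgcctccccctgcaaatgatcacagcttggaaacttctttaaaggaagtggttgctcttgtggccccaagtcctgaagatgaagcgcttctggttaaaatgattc
The Trem2 window held GAGGAAG at 1 place, on the reverse strand, beginning 41 bases before the start, and the Cst7 window held none. Of the 8 members with a window in the table, 2 held GAGGAAG (Trem2 and Axl), none held CACGTG and 2 held TGACTCA (Itgax and Cd68). Over all 32851 windows of that length, 10.6% held GAGGAAG, 6.02% CACGTG and 4.46% TGACTCA, on either strand. None of these 3 motifs overlaps another in its letters.

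Signals are normalized log2 values, so a difference of 1 is a 2-fold change. Arrays 1 to 16 and arrays 17 to 40 stood apart on the first principal component, which held 35.2% of the variance, with scores of -38.6 to -20.9 against 7.16 to 37.1. The B6-rich, SJL-richest and DBA-mid Tg mice and 1 DBA-rich mouse were on the earlier arrays, and the other DBA-rich mice, the SJL-rich mice and all inbred mice on the later ones, so groups were compared only within a set. Detected probes ran from 41.5% to 50.0% of each array. The neuronal genes Slc17a7 and Prox1 were detected on all 40 arrays, Neurod6 and Snap25 on none. Ttr, made by the choroid plexus, ran from 9.91 to 15.45 log2 units over the mice. In whole tissue, fewer cells of a type and less RNA per cell cannot be told apart.

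The strain of some inbred arrays is in doubt. The numbered columns of the deposited non-normalized table follow the numbers in the sample titles, and the columns of the authors' value table follow the accessions. The 2 tables agree on all 28 Tg arrays but place 8 of the 12 inbred arrays on other samples, 6 of them on another strain. Arrays 29 and 30 are B6 by number and DBA by the value table, arrays 33 and 34 SJL by number and B6 by the value table, and arrays 37 and 38 DBA by number and SJL by the value table. Only arrays 31, 32, 35, 36, 39 and 40 keep 1 strain in both. Strain by number is the main reading below; it was chosen with the results of both readings known. Over all 13589 tested probes, strain by number gave 1672 calls for DBA against B6, 1523 for DBA against SJL and 1841 for SJL against B6, and placement by the value table gave 53, 90 and 0. Below, the calls and strain means of Trem2 and Tyrobp and the counts of members are given both ways. Other inbred values, such as those of other cell type lists and of genes outside the members, are by number unless stated, so they carry the same doubt.

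**Figure D1:**
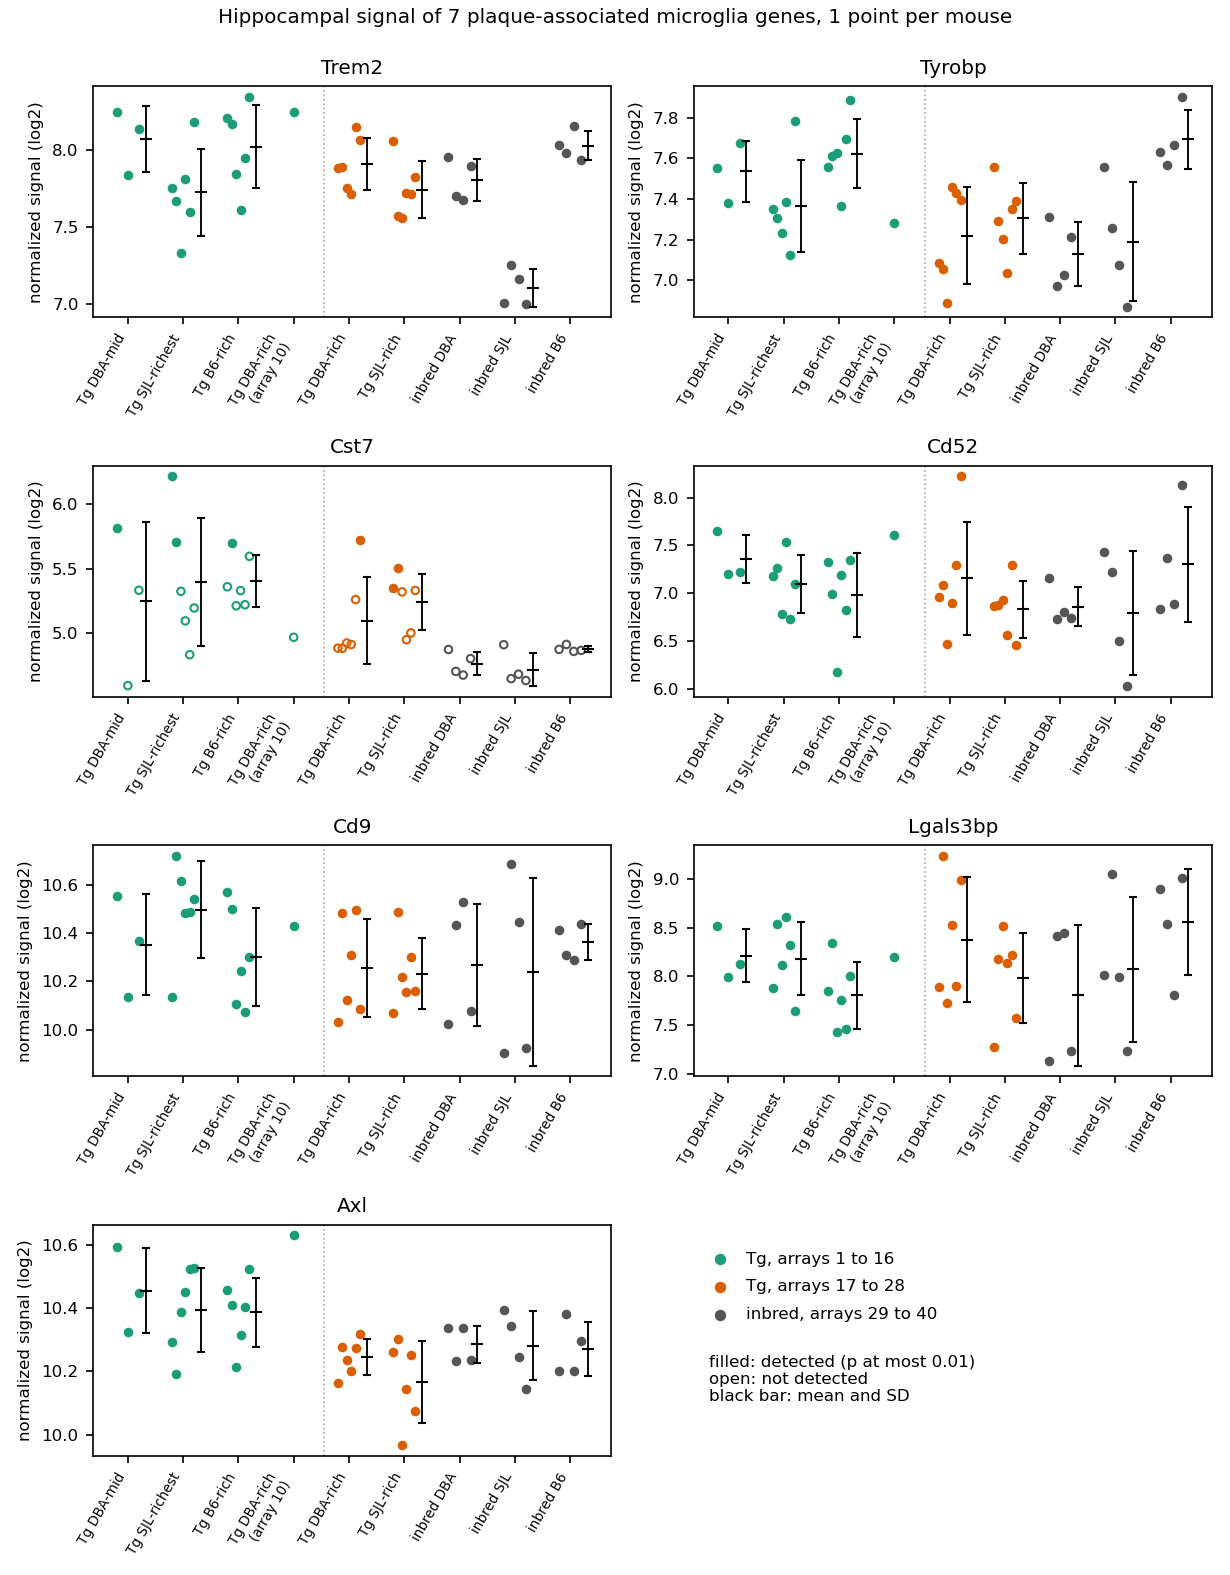
Normalized log2 signal (vertical axis) of the 7 tested genes in each mouse, by group; points are mice, filled where the probe was detected at a p of at most 0.01, and black bars are the mean and SD. The dotted line parts arrays 1 to 16 from arrays 17 to 40. The 4 inbred SJL mice, at 7.00 to 7.25, lie below every other mouse for Trem2, and Cst7 is open on all 12 inbred arrays.

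Detection differed among the members. Trem2, Tyrobp, Cd52, Cd9, Lgals3bp and Axl were detected on all 40 arrays. Cst7 was detected on 7, all of them Tg: arrays 2, 6, 7, 14, 18, 19 and 28. It was therefore tested only because Tg mice passed the rule of detection on at least 4 arrays. At a detection p of at most 0.05 its count was 12 of 16 earlier Tg arrays, 7 of 12 later Tg arrays and 0 of 12 inbred arrays. The inbred arrays are all later ones, so only the later Tg count is a like comparison. Matching shares over all probes are not given here. At that looser limit, Clec7a probe ILMN_2770652 was detected on 0 of 16 earlier Tg, 1 of 12 later Tg and 5 of 12 inbred arrays. Clec7a probe ILMN_1239843 was detected on 1 of 16 earlier Tg, 2 of 12 later Tg and 0 of 12 inbred arrays. The other 2 Clec7a probes reached that limit on 0 and 1 Tg arrays and on 0 and 1 inbred arrays, and the Itgax probe on none. The 4 Clec7a probes thus did not move one way, and neither gene has a measured level here.

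Spread between mice of 1 group set what could be seen. Lgals3bp had a residual SD of 0.53 log2 units within groups, Cd52 0.45 and Cst7 0.31, above those of 97.8%, 96.8% and 92.6% of the 13589 tested probes. Cd9 had 0.22, Trem2 and Tyrobp 0.20 each, against a median of 0.17 over all tested probes. Axl, at 0.11, was the steadiest member, with 19.5% of tested probes below it.

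The inbred strains were compared to ask how background alone sets these genes without amyloid. Strain by number, Trem2 was lowest in SJL hippocampus and Tyrobp was highest in B6 hippocampus. Trem2 measured 7.95, 7.70, 7.67 and 7.89 in DBA mice, 7.00, 7.25, 7.16 and 7.00 in SJL mice, and 8.03, 7.98, 8.15 and 7.93 in B6 mice. The SJL values did not overlap those of either other strain, while the highest DBA value lay within the B6 range. Trem2 was 1.63-fold higher in DBA than in SJL mice (log2 difference 0.70 ± 0.09 SE, limma adjusted p = 0.000107) and 1.90-fold lower in SJL than in B6 mice (-0.92 ± 0.09, adjusted p = 7.89e-06). DBA and B6 mice differed by -0.22 (95% interval -0.41 to -0.03, adjusted p = 0.143), which did not pass.

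Tyrobp, the adaptor, had another order. It measured 7.31, 6.97, 7.03 and 7.21 in DBA mice, 7.56, 7.26, 7.08 and 6.87 in SJL mice, and 7.63, 7.57, 7.67 and 7.90 in B6 mice. All 4 B6 values lay above those of both other strains, though only just above array 33 of SJL. Tyrobp was 1.48-fold lower in DBA than in B6 mice (-0.56 ± 0.14, limma adjusted p = 0.0160) and 1.42-fold lower in SJL than in B6 mice (-0.50 ± 0.14, adjusted p = 0.0274). DBA and SJL mice differed by -0.06 (95% interval -0.36 to 0.24). Leaving out DBA replicate 2 or B6 replicate 4 took the DBA against B6 call away, with adjusted p-values of 0.0507 and 0.0543. Leaving out B6 replicate 1, 3 or 4, or SJL replicate 3 or 4, took the SJL against B6 call away, with adjusted p-values of 0.0515 to 0.0830.

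These calls depend on which table names the strain. On the 6 arrays whose strain is the same in both tables, Trem2 averaged 7.83 ± 0.18 in DBA, 7.08 ± 0.11 in SJL and 8.04 ± 0.15 in B6 mice (SD, n = 2 each). With those arrays alone Trem2 still passed for DBA against SJL (0.75, limma adjusted p = 0.0307) and SJL against B6 (-0.96, adjusted p = 0.0113), and Tyrobp for SJL against B6 (-0.81, adjusted p = 0.0372). Tyrobp for DBA against B6 did not pass there (-0.64, adjusted p = 0.0675). With all 12 arrays placed by the value table, Trem2 averaged 7.92 ± 0.15 in DBA, 7.43 ± 0.42 in SJL and 7.58 ± 0.55 in B6 mice (SD, n = 4 each). Under that placement Trem2 differed by 0.49 for DBA against SJL (limma adjusted p = 0.376) and by -0.15 for SJL against B6 (adjusted p = 0.882). The Trem2 mean of DBA mice then lay above that of B6 mice, the reverse of the order by number. Tyrobp averaged 7.37 ± 0.30 in DBA, 7.05 ± 0.14 in SJL and 7.60 ± 0.27 in B6 mice. Tyrobp differed by -0.23 for DBA against B6 (limma adjusted p = 0.528) and by -0.55 for SJL against B6 (adjusted p = 0.569). No member passed in any strain pair.

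**Figure D2:**
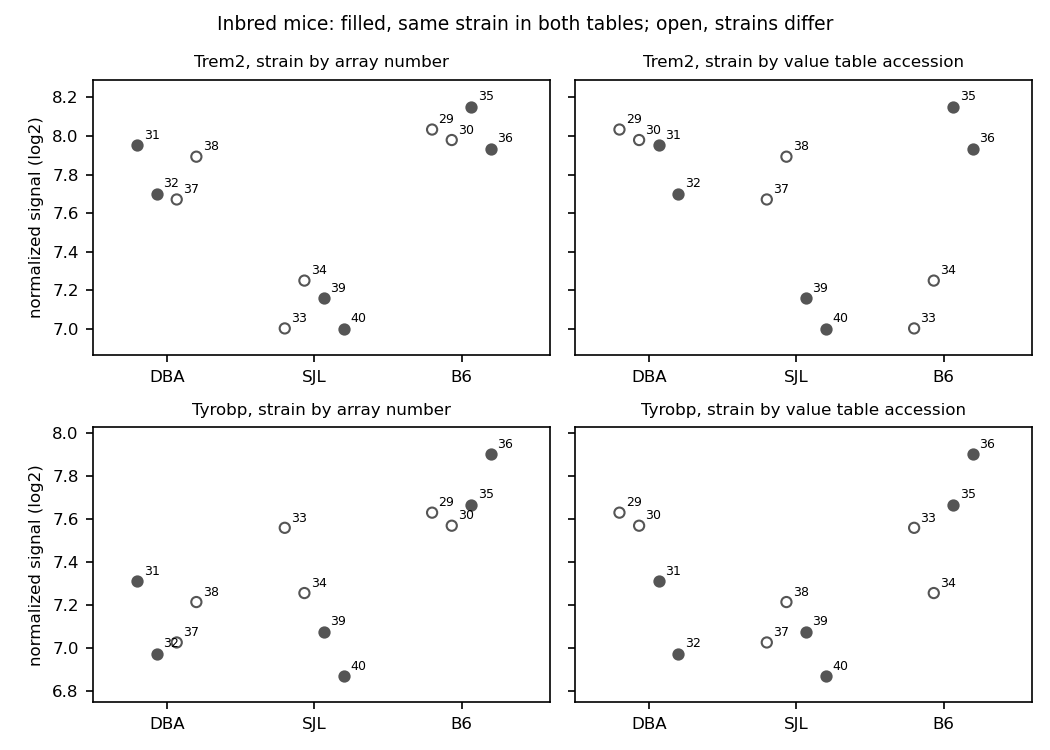
Normalized log2 signal (vertical axis) of Trem2 and Tyrobp in the 12 inbred mice, labelled by array number, with strain by number (left) and by the value table (right); filled points keep their strain in both. By number the 4 SJL mice form a tight low group for Trem2, at 7.00 to 7.25, while by the value table arrays 33 and 34 fall into B6, whose values then run from 7.00 to 8.15.

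The other members did not differ between strains beyond their spread. Cd52 averaged 6.86 ± 0.21 in DBA, 6.80 ± 0.65 in SJL and 7.31 ± 0.60 in B6 mice (SD, n = 4 each), and its SJL to B6 difference was -0.51 (95% interval -1.21 to 0.19). Lgals3bp averaged 7.80 ± 0.72 in DBA, 8.07 ± 0.74 in SJL and 8.56 ± 0.54 in B6 mice, with a DBA to B6 difference of -0.76 (95% interval -1.66 to 0.14). Both intervals leave room for changes larger than those of Tyrobp. Placed by the value table, Cd52 differed by -0.90 for SJL against B6 and Lgals3bp by -0.23 for DBA against B6, and neither passed. Cd9 differed by -0.12 to 0.03 between strains. Axl differed by 0.00 to 0.02 over the 3 strain pairs, with intervals inside -0.15 to 0.17. Cst7 was not detected in any inbred mouse, so its fitted strain differences, none of which passed, measure no level, though its probe is counted among the 7 below.

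Read against all probes, these counts are not high. Of the 7 tested members, 1 passed for DBA against B6, where 12.3% of all tested probes passed, 1 for DBA against SJL, where 11.2% passed, and 2 for SJL against B6, where 13.5% passed. The members' median difference was -0.22, 0.03 and -0.49, beside medians over all probes of 0.04, 0.01 and 0.03. Among 8 tested genes of 15 that work with these receptors, only Fcer1g passed, an adaptor with the same kind of signalling motif as TYROBP. Fcer1g was detected in 0 of 4 DBA and 0 of 4 SJL mice and in 4 of 4 B6 mice. Its signal was at least 13.3-fold lower in DBA than in B6 mice and at least 12.5-fold lower in SJL than in B6 mice (limma adjusted p = 1.04e-13 and 6.66e-14). Fcer1g, like each tested member, was read through 1 probe, and whether a probe reads the strains alike was not tested.

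Other cell type lists moved beside Trem2 and Tyrobp, and their part in the result was not tested. The homeostatic microglia list had 11 tested genes. DBA mice were below B6 mice for 3 of them, and SJL mice below B6 mice for 2. For DBA against SJL, Olfml3, a secreted microglial protein, gave 0.73 and Selplg, the P-selectin ligand, gave -0.55, the 2 calls there. Siglech, a microglial lectin, was among both, with log2 differences of -0.54 and -0.74. The list's summed signal ran from 2529 to 3042 in DBA, 2468 to 2947 in SJL and 2802 to 3085 in B6 mice, so the strains overlapped. Cx3cr1, a defining microglial receptor, averaged 9.25 ± 0.07 in DBA, 9.28 ± 0.07 in SJL and 9.31 ± 0.05 in B6 mice. The oligodendrocyte list had 8 tested genes, of which DBA mice were below B6 mice for 7 and SJL mice below B6 mice for 3. Its summed signal ran from 30750 to 40550 in DBA and 31480 to 44400 in SJL mice, all below the 46580 to 54440 of B6 mice. For DBA against SJL 2 of its genes passed, both lower. Of 5 neuronal genes, 2 passed as lower for DBA against B6 and 2 as lower for DBA against SJL. For SJL against B6, Slc17a7, the vesicular glutamate transporter, gave 1.57 and Prox1, a dentate granule cell factor, gave -0.29. Of 26 other genes of plaque-associated microglia, 2 were higher and 5 lower for DBA against B6, with C1qb and C1qc, complement subunits, at -1.28 and -1.03 and Lpl, lipoprotein lipase, at 1.39. For SJL against B6, 2 were higher and 3 lower, with Gpnmb at -1.81, C1qb at -1.14 and Lpl at 1.42. For DBA against SJL the list gave 1 call, Gpnmb, at 0.87. Of 4 tested genes of blood and border myeloid cells, none passed in any strain pair, and Ccr2, Lyve1 and Pf4, which mark monocytes, perivascular macrophages and platelets, were detected on no array.

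Within the Tg mice the question was whether backgrounds, which differed in Abeta40 to unlike degrees, also differed in these genes. Log10 Abeta40 averaged 4.53 ± 0.14 in DBA-mid, 4.80 ± 0.28 in SJL-richest and 4.59 ± 0.37 in B6-rich mice (SD, n = 3, 6 and 6), and these ranges overlapped. It averaged 4.14 ± 0.27 in DBA-rich (n = 7, with array 10) and 4.99 ± 0.30 in SJL-rich mice (n = 6), which did not overlap. No member passed in any of the 4 comparisons between Tg backgrounds, 3 on the earlier arrays and 1 on the later ones. For DBA-mid against SJL-richest mice, 2.55% of all tested probes passed, for DBA-mid against B6-rich mice 4.79%, for SJL-richest against B6-rich mice 1.65% and for DBA-rich against SJL-rich mice 10.4%. At an unadjusted p under 0.05, 1 member stood out in 1 of the 4, Tyrobp for SJL-richest against B6-rich mice. The 0 calls among 7 genes are near those shares. Ttr averaged 14.27 ± 0.27 in DBA-mid (SD, n = 3) and 14.00 ± 1.11 in SJL-richest mice (n = 6), against 11.64 ± 1.40 in B6-rich mice (n = 6), with log2 differences of 2.63 and 2.36 (limma adjusted p = 0.0551 and 0.0632). The part of choroid plexus RNA in the comparisons with B6-rich mice was not tested.

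Trem2 measured 7.83, 8.13 and 8.25 in DBA-mid mice at its lowest, median and highest, 7.33, 7.71 and 8.18 in SJL-richest mice, and 7.61, 8.06 and 8.35 in B6-rich mice. The SJL-richest mice thus reached lowest, but the 3 groups overlapped. On the later arrays it measured 7.71, 7.89 and 8.15 in DBA-rich mice and 7.55, 7.72 and 8.06 in SJL-rich mice. The differences were 0.35 for DBA-mid against SJL-richest (95% interval -0.02 to 0.72), 0.05 for DBA-mid against B6-rich (-0.32 to 0.42), -0.30 for SJL-richest against B6-rich (-0.60 to 0.01) and 0.17 for DBA-rich against SJL-rich mice (-0.01 to 0.35). None passed in limma (adjusted p = 0.269 to 0.892). The mice with more SJL had the lower mean in 3 of the 4 comparisons, and the higher mean for DBA-mid against B6-rich mice. Some of these comparisons share a group, and the B6 or DBA shares differed as well. The part of the SJL share was not tested.

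Tyrobp was lowest in SJL-richest mice on the earlier arrays, at 7.36 ± 0.23, against 7.54 ± 0.15 in DBA-mid and 7.62 ± 0.17 in B6-rich mice (SD, n = 6, 3 and 6). Its SJL-richest to B6-rich difference of -0.26 had an interval below 0 (-0.49 to -0.03) but a limma adjusted p of 0.228. On the later arrays it averaged 7.22 ± 0.24 in DBA-rich and 7.30 ± 0.18 in SJL-rich mice (n = 6 each), which overlapped.

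On the earlier arrays Cst7 spread widely in DBA-mid and SJL-richest mice (SD 0.62 and 0.50) and less in B6-rich mice (SD 0.20). It measured 5.82, 4.59 and 5.33 in DBA-mid mice, of which the first was detected. In SJL-richest mice it ran from 4.83 to 6.22, the highest value of any mouse, and in B6-rich mice from 5.21 to 5.70. The group means of Cst7 differed by at most 0.16, below the SD within each of these groups. Cd52 differed by 0.12 to 0.38 between the backgrounds of the earlier arrays and by 0.32 (95% interval -0.23 to 0.88) for DBA-rich against SJL-rich mice. Lgals3bp was 0.41 higher in DBA-mid (-0.08 to 0.89) and 0.38 higher in SJL-richest (-0.02 to 0.77) than in B6-rich mice, neither past the test. Cd9 and Axl differed by at most 0.20 in size.

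The later arrays also held the inbred mice, so Tg and inbred hippocampus could be compared there, DBA-rich with DBA and SJL-rich with SJL. Trem2 was higher in SJL-rich than in SJL mice and did not pass for DBA-rich against DBA mice, while Tyrobp, Cd52, Cd9, Lgals3bp and Axl passed in neither pair. Cst7 was detected in Tg mice only, and is described apart from them. In SJL-rich mice Trem2 measured 8.06, 7.57, 7.55, 7.72, 7.71 and 7.82, against 7.00, 7.25, 7.16 and 7.00 in inbred SJL mice. Every SJL-rich value lay above every SJL value. Trem2 was 1.55-fold higher there (0.64 ± 0.10, limma adjusted p = 0.000438). In DBA-rich mice it measured 7.88, 7.89, 7.75, 7.71, 8.15 and 8.07, against 7.95, 7.70, 7.67 and 7.89 in inbred DBA mice. Those groups overlapped, and the difference of 0.10 (95% interval -0.10 to 0.31) did not pass (adjusted p = 0.624).

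Cst7 measured 5.35, 5.51, 5.32, 4.95, 5.00 and 5.33 in SJL-rich mice, against 4.91, 4.65, 4.68 and 4.63 in inbred SJL mice. It measured 4.88, 4.88, 4.92, 4.91, 5.26 and 5.72 in DBA-rich mice, against 4.87, 4.70, 4.68 and 4.80 in inbred DBA mice. In both pairs every Tg value lay above every inbred value, although 4 of the 6 DBA-rich mice did so narrowly. The probe was detected on 2 of 6 SJL-rich and 0 of 4 SJL arrays, and on 1 of 6 DBA-rich and 0 of 4 DBA arrays. With so few detected signals the bound on its fold was below 1 in both pairs, so no size is given. It passed the limma test for SJL-rich against SJL (adjusted p = 0.0111) and not for DBA-rich against DBA mice (adjusted p = 0.195). Since Tg arrays alone brought it past the detection filter, that call is no support for a difference. It was also lost with a floor in place of normexp (adjusted p = 0.117) and with the value table by accession (adjusted p = 0.0515).

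Of the 7 tested members, 2 passed for SJL-rich against SJL mice, where 15.9% of all tested probes passed, and 0 for DBA-rich against DBA mice, where 1.87% passed. Averaged over the 2 pairs, Trem2 was higher by 0.37 ± 0.07 (limma adjusted p = 0.00107) and Cst7 also passed (adjusted p = 0.00350, and 0.0640 with a floor in place of normexp), 2 of 7 members beside 20.5% of all tested probes. In both counts Cst7 is the probe that Tg arrays alone brought into the test, which leaves Trem2.

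The other 5 members did not pass, and their intervals held 0. Averaged over the pairs, Tyrobp differed by 0.10 (95% interval -0.09 to 0.29), Cd52 by 0.17 (-0.27 to 0.60), Cd9 by -0.01 (-0.21 to 0.20), Lgals3bp by 0.24 (-0.30 to 0.78) and Axl by -0.08 (-0.17 to 0.02). For Tyrobp, Cd9 and Axl these intervals leave out a change of 1.5-fold, and for Cd52 and Lgals3bp they do not. The adaptor Tyrobp thus showed no call where its receptor Trem2 did, though the difference between the 2 genes was not tested.

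**Figure D3:**
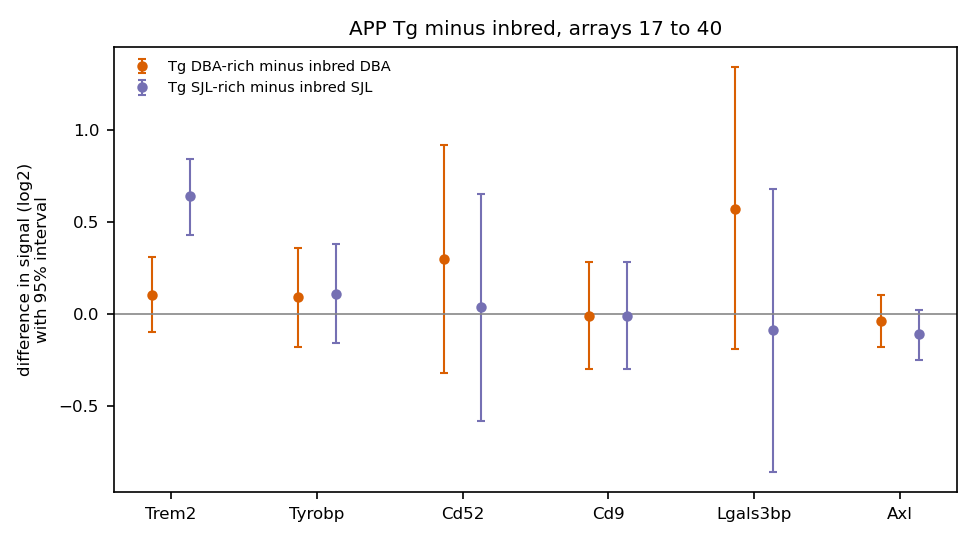
Difference in normalized log2 signal (vertical axis) between Tg and inbred mice for the 6 genes detected on all arrays, DBA-rich minus DBA on the left and SJL-rich minus SJL on the right of each pair; points are limma estimates and bars 95% intervals. Trem2 sits at 0.10 in the DBA pair and 0.64 in the SJL pair, and the intervals of the other 5 genes hold 0 in both.

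Trem2 differed more in the SJL pair than in the DBA pair by point estimate, and the test of that difference gave -0.53 ± 0.14 for DBA minus SJL (limma unadjusted p = 0.000869, adjusted p = 0.105), which did not pass. No member passed that test, which 0.397% of all probes did. With the inbred mice placed by the value table, the Trem2 value was -0.32 (adjusted p = 0.551). By number, the inbred SJL mice were those that stood low for Trem2, whereas the SJL-rich Tg mice, at 7.74 ± 0.19 (SD, n = 6), were near inbred DBA mice at 7.80 ± 0.14 (n = 4). By level the later arrays ran, from the top, B6 8.03, DBA-rich Tg 7.91, DBA 7.80, SJL-rich Tg 7.74 and SJL 7.10, and of neighbours in that order only the last pair did not overlap.

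With the inbred mice placed by the value table, the Trem2 calls were lost. The averaged Trem2 difference was 0.15 (limma adjusted p = 0.505), and that of the SJL pair 0.31 (adjusted p = 0.290). With the 12 Tg mice set against all 12 inbred mice, the strain name given to an inbred array plays no part. Trem2 then differed by 0.18 ± 0.13 (adjusted p = 0.362), which did not pass. That pool also holds the inbred B6 mice, by number the highest for Trem2 at 8.03, while the later arrays held no B6-rich Tg mice. It therefore differs in strain make-up from the DBA and SJL pairs and cannot decide whether their Trem2 difference holds. With only the 6 inbred arrays of settled strain, Trem2 passed on average (0.37, adjusted p = 0.0369) and in the SJL pair (0.66, adjusted p = 0.0144).

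Array position was checked next. The files name no slide, and runs of 8 arrays in number order were taken as a stand-in. The SJL-rich mice filled arrays 18 to 23 and the inbred SJL mice arrays 33, 34, 39 and 40, which share no run. That pair alone thus cannot tell run and group apart, and a fit with run as a block links them only through other groups. In that fit Trem2 differed by 0.67 in the SJL pair (limma adjusted p = 0.284), a like size that did not pass. With run as a block, the averaged Trem2 difference was 0.39 and no longer passed (limma adjusted p = 0.285), and neither did Cst7 (adjusted p = 0.161). Within arrays 25 to 32, 4 DBA-rich and 2 DBA mice differed by 0.09 for Trem2.

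Genes around the receptor are set beside the 20.5% of all tested probes that passed for the averaged Tg difference. With run as a block that share was 0.508%, and the calls of these other lists were not followed there. Of 8 tested partners, 2 were higher and 1 lower in Tg mice on average: Fcer1g by a fitted 1.90, which rests partly on arrays where it was not detected, Plcg2, a phospholipase downstream of TREM2, by 0.17, and Pros1, a ligand of the TAM receptors, by -0.22 (limma adjusted p = 0.00872, 0.0472 and 0.0360). Fcer1g was detected in 5 of 6 SJL-rich mice and 0 of 4 SJL mice, at least 3.43-fold higher. By number, its probe was also detected in 4 of 4 inbred B6 and 0 of 4 DBA mice. The SJL-rich mice were 31% B6, and the DBA-rich mice, of which 1 of 6 had it detected, were 16% B6. The part of the B6 share in the Fcer1g difference was not tested. Spi1, Syk and Itgb2 were detected on no array.

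Of 11 tested homeostatic microglia genes, 0 passed for Tg against inbred mice in either pair or on average, with a median difference of 0.01, the same as over all probes. Their summed signal ran from 2399 to 2959 in SJL-rich mice and 2468 to 2947 in SJL mice, and from 2403 to 3173 in DBA-rich mice and 2529 to 3042 in DBA mice. Tmem119 and Aif1 differed by 0.00 and 0.01, and Cx3cr1 by -0.13 (limma adjusted p = 0.0615). Of 26 other genes of plaque-associated microglia, 4 were higher and 5 lower on average, beside 20.5% of all tested probes in either direction. Gpnmb, a glycoprotein of lysosome-rich macrophages, was higher by 0.70 and Ccl4, a chemokine, by 0.54, while the cathepsins Ctsd and Ctss gave -0.77 and -0.64, from probes detected on 1 and 0 of 6 SJL-rich arrays and on 4 and 2 of 4 SJL arrays (adjusted p = 6.33e-05, 0.0483, 0.000227 and 0.000249). The calls on that list thus ran in both directions. For Gpnmb the average joins unlike pairs: the SJL pair gave 1.22, and the DBA minus SJL difference was -1.05 (limma adjusted p = 0.0062). By number, inbred SJL mice were also lowest for Gpnmb, at 6.45, against 7.32 in DBA and 8.26 in B6 mice. The part of background in its difference was not tested.

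Astrocyte and myeloid markers were read beside these calls. Gfap, the intermediate filament of reactive astrocytes, was higher by 0.57 in SJL-rich than in SJL mice (limma adjusted p = 0.00262). In that pair 2 of 7 astrocyte genes passed, beside 15.9% of all tested probes. The 4 blood and border myeloid genes gave no call, and their summed signal ran from 135 to 362 in SJL-rich mice, against 180 to 1034 in SJL mice. Of 8 oligodendrocyte genes 0 passed in either pair, and of 5 neuronal genes 1 was lower in SJL-rich than in SJL mice. The part of astrocyte or border cell RNA in the Trem2 difference was not tested.

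Amyloid load was then set against each gene as the slope in log2 signal per 10-fold of Abeta40, with background held fixed. No member passed in any of the 5 slope fits by limma. Within background, 0% of all tested probes passed on the earlier arrays, the later arrays or both together, and 0% for the difference between the sets. At an unadjusted p under 0.05 those 4 fits gave 622, 546, 604 and 568 probes, of which 0, 0, 0 and 1 were members. Across backgrounds, 3.71% of all probes passed and 0 members did, with 2315 probes and 0 members at an unadjusted p under 0.05.

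On the earlier arrays 4 members had fitted slopes above 0.2, and their intervals all held 0: Cst7 0.57 (95% interval -0.17 to 1.31), Cd52 0.50 (-0.13 to 1.13), Trem2 0.36 (-0.12 to 0.83) and Tyrobp 0.26 (-0.10 to 0.61). Single mice moved these sizes but changed no sign, and Cd52 moved most. Leaving out 1 array at a time gave 0.37 to 0.78 for Cst7 and 0.06 to 0.67 for Cd52, lowest without B6-rich replicate 3. It gave 0.21 to 0.46 for Trem2 and 0.11 to 0.37 for Tyrobp, both lowest without SJL-richest replicate 6. Most Cst7 signals in these fits were below the detection limit. The 4 arrays there with detected Cst7 had log10 Abeta40 of 5.05, 4.96, 4.83 and 4.69, in a range of 4.06 to 5.16 for the 15 mice fitted. Arrays 12 and 5, at 5.16 and 4.98, were among the mice in which Cst7 was not detected. On the later arrays Cst7 gave -0.46 (-1.03 to 0.11), Cd52 -0.12 (-1.14 to 0.91), Trem2 -0.14 (-0.56 to 0.27) and Tyrobp 0.14 (-0.34 to 0.62). Leaving out 1 array at a time gave -0.61 to -0.22 for Cst7 and -0.72 to 0.40 for Cd52, both highest without array 28, -0.29 to -0.03 for Trem2 and -0.02 to 0.25 for Tyrobp. There detected Cst7 fell on mice at 4.82, 4.62 and 3.86, the last of which, array 28, had the lowest Abeta40 of all Tg mice together with the highest Cst7 and Cd52 of the later Tg arrays, at 5.72 and 8.23.

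Between the sets the Cst7 slope differed by -1.03 (95% interval -2.02 to -0.04, limma unadjusted p = 0.0416, adjusted p = 0.999), later minus earlier, and by -0.79 without array 28. Pooled over all Tg mice the slopes were 0.13 for Cst7, 0.14 for Trem2, 0.21 for Tyrobp, 0.24 for Cd52, 0.12 for Cd9, 0.11 for Lgals3bp and 0.01 for Axl. The Axl interval, -0.16 to 0.19, was the narrowest, and that of Lgals3bp, -0.54 to 0.75, the widest. The pooled slope of the 11 homeostatic genes had a median of 0.07 and that of the members 0.13, beside 0.00 over all probes, with no call in either list.

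**Figure D4:**
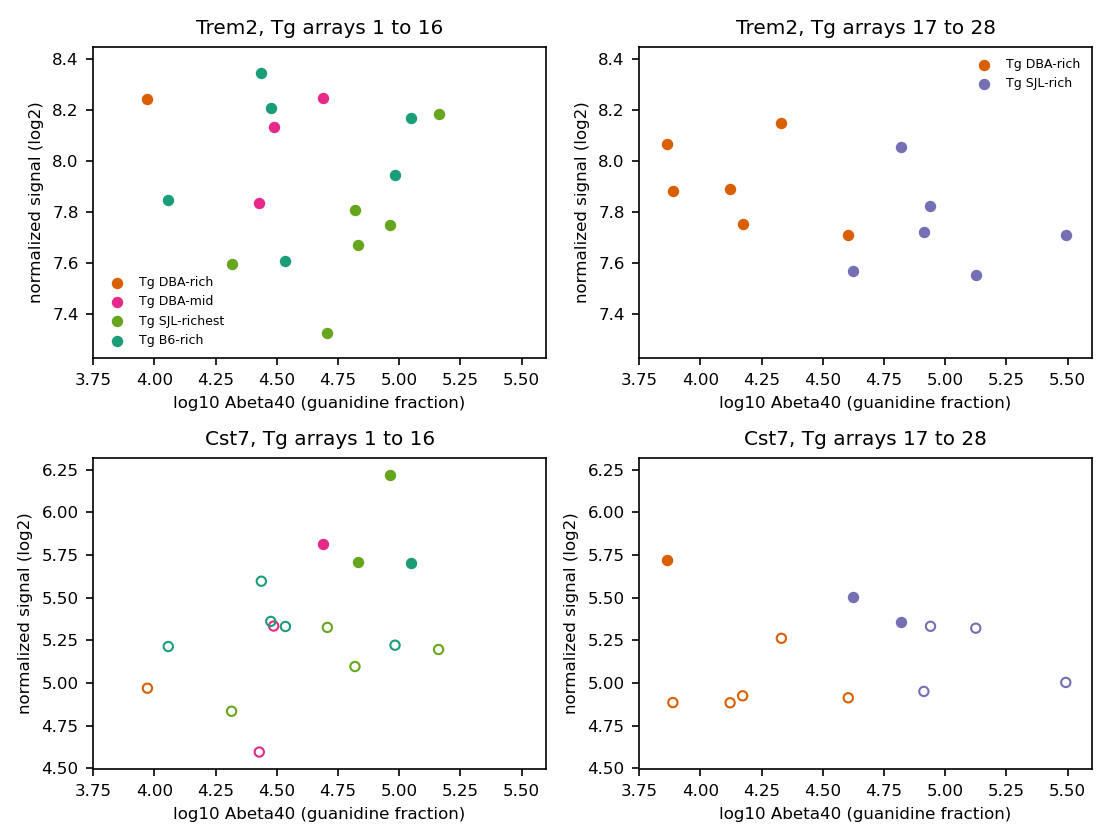
Normalized log2 signal of Trem2 and Cst7 (vertical axis) against log10 Abeta40 (horizontal axis) in the Tg mice of arrays 1 to 16 (left) and 17 to 28 (right), coloured by background; filled points were detected. The mice with detected Cst7 sit at Abeta40 of 4.69 and above on the left, but mice without detected Cst7 lie there too, among them array 12 at the highest value, 5.16. On the right array 28 pairs the lowest Abeta40, 3.86, with the highest Cst7, 5.72.

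After each Tg array had its group mean taken away, 27 arrays remained on which members could be compared with each other; these correlations share arrays and normalization and are descriptions. Trem2 went most closely with Tyrobp, at Pearson r = 0.69, its signalling partner, and then with Axl at 0.52. Cd52 went with Lgals3bp at 0.50 and with Cst7 at 0.47, and Trem2 with Cst7 at 0.34. Lgals3bp and Trem2 gave -0.09, and Lgals3bp and Tyrobp -0.16. 

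Over all genes, those most like Trem2 were Taldo1, Epn2 and Tmem63a (r = 0.77, 0.75 and 0.74). Those most like Cd52 were Uba7, the class II gene H2-Eb1 and the complement gene C1qc (0.83, 0.82 and 0.79). Those most like Cst7 were Creb3l2, Pld4 and Ly86 (0.73, 0.70 and 0.70), and those most like Tyrobp were Gngt2, Plxnb3 and Snrnp35 (0.75, 0.73 and 0.71). Cd9 was closest to Arsg, Olfml1 and Cd82 (0.79, 0.77 and 0.76), Axl to Septin2, Cacna2d1 and Il33 (0.86, 0.79 and 0.78), and Lgals3bp to Id3, Icam1 and Rnaset2b (0.72, 0.70 and 0.69). Tyrobp was not among the 3 nearest genes of Trem2, nor Trem2 among those of Tyrobp.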

How the data were processed

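Samples were grouped by the strain shares and transgene status in the labels. The deposited non-normalized table holds a signal intensity per probe and array, on a linear scale with values below 0, and its detection column, headed as a detection p-value per the file headers, is near 1 for bright probes and was read as 1 minus p. The authors' value table also holds linear intensity values; their normalization is not stated there. Background was corrected with normexp and an offset of 16, followed by quantile normalization and log2 (neqc, limma 3.58.1, R 4.3.3). Probes detected at a p of at most 0.01 on at least 4 of 40 arrays were tested, 13589 of 25697, with lmFit and eBayes and Benjamini-Hochberg adjustment over all of them at 0.05. Inbred strains were fitted on their own, Tg and inbred mice of arrays 17 to 40 together, and array 10, the lone DBA-rich mouse of the earlier set, was left out of group contrasts and within-background slopes. All tested probes of the members are named; on other lists the rule was up to 4 called genes of largest change plus defining markers, and genes outside it were named after their values were seen. Lists covered signalling partners, homeostatic and other plaque-associated microglia, border myeloid cells, oligodendrocytes, astrocytes, neurons and vessels. Members and lists were chosen with earlier results of these data known. Fits were tested on simulated data. The number of arrays limits the precision. Alternatives varied the correction, filter, variance model, table, strain placement, test, array run and single arrays.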

Additional observations from a re-analysis of the deposited data

How the results depend on the processing

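Counts of members passing the test stayed within 1.5 times the main count in 119 pairings of a comparison with another setting, and in 22 they moved. Most of the 119 come from comparisons with no member called in the main fit, where 0 stayed 0. All 22 fell in the comparisons that had a called member, so the 119 are no measure of how steady those calls were. No direction of a call reversed. With the authors' value table, its columns by accession, 0 members passed for DBA against B6, 0 for DBA against SJL, 0 for SJL against B6, 0 for SJL-rich against SJL and 1, Cst7, for the averaged Tg difference. With inbred arrays placed by the value table these counts were 0, 0, 0, 1 and 1, the last 2 being Cst7. With only inbred arrays of settled strain, 0 passed for DBA against B6, and 1, Trem2, for SJL-rich against SJL and for the average. SJL against B6 kept 1, Trem2, with only the groups compared (Tyrobp adjusted p = 0.0508) and with the methods' t-test (Tyrobp adjusted p = 0.119). SJL-rich against SJL and the average each kept 1, Trem2, with a floor and no normexp (Cst7 adjusted p = 0.117 and 0.0640) and with only probes detected on all arrays, where Cst7 was not tested. With array runs as a block, both gave 0. The 12 later Tg arrays against all inbred arrays gave 1, Cst7. Leaving out single arrays gave 0 to 1 for DBA against B6 and 1 to 2 for SJL against B6, and moved no other count. Except where a setting tested fewer probes or samples, the cause was not tested.

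Calls over all probes moved by more than 1.5 times as follows. The value table by accession gave 63, 93 and 0 for the inbred pairs in the order above, and arrays of settled strain 986, 892 and 824, against 1672, 1523 and 1841. SJL-richest against B6-rich gave 107 with no filter and 53 to 354 without single arrays, against 224. DBA-mid replicate 2 left out gave 214 against SJL-richest and 307 against B6-rich, where all arrays gave 346 and 651. DBA-rich against SJL-rich gave 482 with the value table, against 1411. DBA-rich against DBA gave 56 to 162 under 5 settings and 101 to 148 without inbred DBA replicate 1, 2 or 4, against 254. SJL-rich against SJL gave 15 with runs as a block, 700 with settled arrays, 1430 without inbred SJL replicate 1 and 1442 with probes detected on all arrays, against 2164. The average gave 69, 748, 1562 and 1607 with the run block, settled arrays and both uses of the value table, against 2783. The difference between the pairs gave 16 to 338, against 54. The later Abeta40 slope gave 157 with no background term, against 0, the earlier and pooled slopes 4 and 1 without B6-rich replicate 5, against 0, and the slope across backgrounds 192 to 325 under 6 settings, against 504. No paired analysis was possible because the running numbers only name arrays and pair nothing. Signal over background limits Cst7, Clec7a and Itgax, and the spread between mice limits Cd52 and Lgals3bp.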
